A study of Mus musculus with 3 samples.

Results

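The WNT ligand genes are 10 of the 24062 gene symbols in the deposited count tables, taken by name: *Wnt1*, *Wnt3*, *Wnt3a*, *Wnt4*, *Wnt5a*, *Wnt5b*, *Wnt6*, *Wnt7b*, *Wnt8b* and *Wnt11*. The tables hold 19 WNT ligand genes in all, and the other 9 are described further on. RNA-Seq was carried out on rostrums, the foremost part of the head, from E9 embryos with 18 to 22 somites. One genotype was *tuft*/*tuft*, homozygous for a spontaneous nonsense mutation of *Tet1*, in embryos with a neural tube defect. The other was the wild-type 3H1 Balb strain, which the labels also give as the strain of the *tuft* embryos. RNA of 3 embryos per genotype was pooled and 1 count column per genotype was analyzed, so no value has a replicate error, no difference between the genotypes was tested, and every interval below is a 95% interval for counting error only. The labels list 2 *tuft* samples, and the *tuft* column is assigned to neither of them.

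WNT proteins are secreted, lipid-modified glycoproteins. They bind Frizzled receptors on nearby cells, either together with the co-receptors LRP5 and LRP6, which stabilizes β-catenin and activates TCF/LEF target genes, or with receptors such as ROR2, which acts on the cytoskeleton and cell polarity without β-catenin. In the embryonic head, the dorsal midline and the border of midbrain and hindbrain express *Wnt1* and *Wnt3a*, the early forebrain expresses *Wnt7b* and *Wnt8b*, the surface ectoderm expresses *Wnt6*, and the facial mesenchyme expresses *Wnt5a*.

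The *tuft* library held 6433067 counts on genes and the wild-type library 14251942, a 2.22-fold difference in depth, and were scaled by TMM (trimmed mean of M-values). Levels are TMM-scaled CPM, in which a count is divided by the scaled total of its library, and fold changes are *tuft* over wild type. A gene was counted as past 2-fold when its whole interval lay above 2-fold or below the inverse of 2-fold. *Tet1*, the mutated gene, had 32 counts in *tuft* against 435 in wild type, which gave 0.214 as the fold change (0.145 to 0.307). Of the 13979 genes with at least 10 counts over both libraries, 47.2% were past 2-fold, 17.4% higher and 29.8% lower in *tuft*, and their median log2 fold change was -0.46. With library totals alone, 12.4% were higher and 37.8% lower. Scaled to *Gapdh*, the reference gene of the study's qPCR, 34.5% were higher and 15.9% lower. All fold changes shift together under another scaling, by -0.39 on the log2 scale with library totals, 0.24 with a list of 12 reference genes and 0.99 with *Gapdh*. *Gapdh* itself had 86 and 499 counts.

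Of the 10 ligand genes, all passed the filter, 4 were past 2-fold higher in *tuft* (*Wnt4*, *Wnt5a*, *Wnt6* and *Wnt7b*) and 1 was past 2-fold lower (*Wnt1*). The share higher was 40.0%, beside 17.4% of all genes tested, and the share lower was 10%, beside 29.8%. In either direction, 5 of the 10 were past 2-fold, beside 47.2% of all genes. The median log2 fold change of the ligand genes was 0.012, with the 3 genes without a *tuft* count set to a floor of 3 counts. The sign of this median reversed with library totals (-0.38) and with the upper quartile (-0.036). The counts on the 10 genes summed to 3312 in *tuft* and 4790 in wild type, which is 2.01-fold (1.93 to 2.11) after scaling. Because the tissue was bulk, fewer cells that express a ligand and less of its RNA per cell cannot be told apart.

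**Figure D1:**
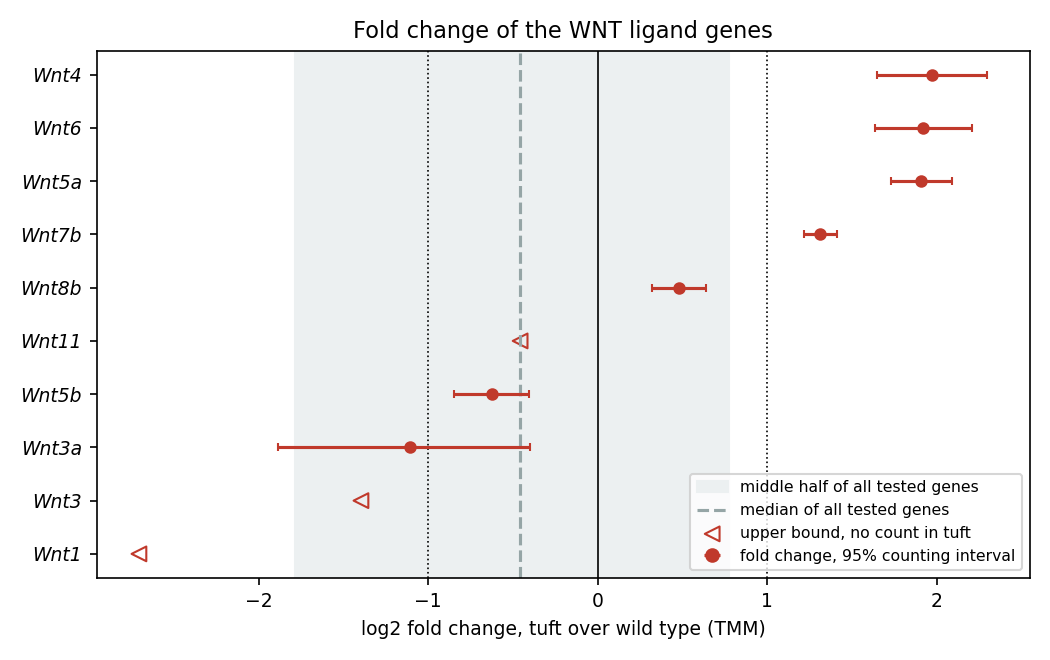
log2 fold change of each ligand gene (x axis, *tuft* over wild type, TMM) with its 95% counting interval, beside the median and the middle 50% of the 13979 tested genes (grey); dotted lines mark 2-fold. Open triangles are upper bounds for the 3 genes without a count in *tuft*, and *Wnt4*, *Wnt6*, *Wnt5a* and *Wnt7b* lie wholly to the right of the upper 2-fold line.

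TET1 acts on methylated cytosine, which in mammals lies mostly at CpG dinucleotides, so the CpG content of the ligand promoters is given first. RefSeq promoter windows of GRCm38.p6, 250 bases before to 50 after a start, were found for 8 of the 10 genes, not for *Wnt5a* and *Wnt7b*. The windows of *Wnt1*, *Wnt3*, *Wnt3a*, *Wnt4*, *Wnt6* and *Wnt11* and the outermost window of *Wnt5b* held 23 to 51 CpG in 300 bases, beside a median of 7 over 32851 windows of the genome. *Wnt8b* was the exception among the genes with a single window, with 6 CpG. The 250 bases before the start are shown, with CpG in capitals, for *Wnt4* (the highest fold change), *Wnt1* (the lowest) and *Wnt8b* (the CpG-poor promoter). They lie on the plus strand at chr4:137277385-137277634, chr15:98789607-98789856 and chr19:44493222-44493471.

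*Wnt4*: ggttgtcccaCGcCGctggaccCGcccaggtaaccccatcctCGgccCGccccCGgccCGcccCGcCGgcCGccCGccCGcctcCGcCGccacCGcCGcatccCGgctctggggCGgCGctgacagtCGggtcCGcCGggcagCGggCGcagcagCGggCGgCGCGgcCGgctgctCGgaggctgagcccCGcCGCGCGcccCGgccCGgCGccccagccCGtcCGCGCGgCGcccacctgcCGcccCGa
*Wnt1*: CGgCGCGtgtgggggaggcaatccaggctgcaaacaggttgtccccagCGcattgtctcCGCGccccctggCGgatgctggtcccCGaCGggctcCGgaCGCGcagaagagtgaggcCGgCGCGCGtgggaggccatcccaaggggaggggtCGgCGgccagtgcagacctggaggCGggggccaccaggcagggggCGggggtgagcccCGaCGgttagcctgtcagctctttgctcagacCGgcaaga
*Wnt8b*: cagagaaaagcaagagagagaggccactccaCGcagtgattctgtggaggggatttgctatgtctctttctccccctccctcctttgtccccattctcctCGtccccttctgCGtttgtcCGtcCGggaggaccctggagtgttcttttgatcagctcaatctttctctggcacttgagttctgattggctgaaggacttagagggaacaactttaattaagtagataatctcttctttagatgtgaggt

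The capitals number 44 CpG for *Wnt4*, 23 for *Wnt1* and 5 for *Wnt8b*. *Wnt4* (51 CpG in its 300 bases) was 3.92-fold higher, and *Wnt1* (26 CpG) had no count in *tuft*. All genes with a window except *Wnt8b* had a CpG-rich one, and a relation of CpG content to the fold changes was not tested. DNA methylation of these promoters was not analysed here.

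Some WNT genes lie downstream of WNT signaling themselves, and the TCF/LEF motif CTTTGAT was searched on both strands in the same windows, a motif chosen with the values of the genes known. It was found in 3.73% of all windows and in those of 2 ligand genes, the first window of *Wnt11* and the innermost window of *Wnt5b*. The match of *Wnt11* lies on the minus strand of the gene, in the plus-strand sequence at chr7:98835049-98835079. The match of *Wnt5b* reads on the strand of the gene, which is the minus strand, at chr6:119449439-119449469. The motif is in capitals in the sequences, which are written along each gene.

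*Wnt11*: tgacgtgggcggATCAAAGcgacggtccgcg
*Wnt5b*: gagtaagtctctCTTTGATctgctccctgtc

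A match is a description of the letters only. Neither *Wnt11* nor *Wnt5b* was past 2-fold.

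*Wnt1* encodes the ligand that maintains the border of midbrain and hindbrain, and its position in GRCm38.p6, the build of all positions given, is 98789857 to 98793830 of chromosome 15. It had no count in *tuft*, against 57 counts (3.49 CPM) in wild type, which would correspond to 19.6 counts at the scale of the *tuft* library. With the floor of 3 counts in *tuft*, *Wnt1* was 6.52-fold lower, and its counting interval reached to 5.14-fold lower. Under TMM it was the only ligand gene of the 10 past 2-fold lower, and it was past 2-fold lower under all 5 other scalings as well. *Wnt3* and *Wnt11*, also without a count in *tuft*, had too few wild-type counts (23 and 12) to be past 2-fold lower under TMM. Genes at this level were often without a count in *tuft*: of 1963 genes with at least 30 and under 100 wild-type counts, 44.8% had none. The share was 15.9% with at least 100 and under 300 wild-type counts, and 3.22% with at least 300 and under 1000. Among all genes tested, 2609 were at 0 in *tuft*, whereas 35 were at 0 in wild type. Zeros in *tuft* were thus not limited to weakly counted genes, and whether any zero was specific to its gene was not tested.

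*Wnt3*, which acts through β-catenin in the early embryo (chromosome 11, 103774175 to 103818021), had no count in *tuft*, against 23 counts in wild type, which with the floor of 3 counts was 2.63-fold lower. Its counting interval reached to 1.97-fold lower, so it was not wholly past 2-fold. Of 1670 genes with at least 10 and under 30 wild-type counts, 71.1% had none in *tuft*, so a zero was the usual value at the level of *Wnt3*. *Wnt3a*, its closest relative, which patterns the dorsal neural tube (chromosome 11, 59248036 to 59290751), had 19 counts in *tuft* against 119 in wild type. The fold change was 0.465 (0.270 to 0.758), a lower level in *tuft* whose interval was not wholly past 2-fold. *Wnt1*, *Wnt3* and *Wnt3a* thus all had fewer scaled counts in *tuft*, and *Wnt1* alone was past 2-fold by its interval. *Wnt6*, *Wnt7b* and *Wnt8b*, also known to signal through β-catenin, had more. Scaled to *Gapdh*, *Wnt3a* came close to level, with a log2 fold change of -0.11.

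Markers of the regions that express these 3 ligands did not share 1 direction. Of 12 roof plate and dorsal neural genes, 1 was past 2-fold higher (*Bmp4*, a dorsal signal, 3.70-fold, 3.19 to 4.30) and 3 lower, with a median log2 fold change of -0.34 and *Pax3*, a dorsal neural factor, at 0.306 (0.204 to 0.444). *Gdf7*, which defines the roof plate, had 0 counts in *tuft* against 21 in wild type. Of all genes with at least 10 and under 30 wild-type counts, 71.1% had none in *tuft*. *Lmx1a*, another gene of this list, had 68 and 164 counts, and its fold change was 1.21 (0.896 to 1.61). The summed level of the list was 346 CPM in *tuft* and 284 CPM in wild type. Of 12 genes of the midbrain and its border with the hindbrain, 11 passed the filter. Of these, 6 were higher and 2 lower (55% and 18%, beside the same 17.4% and 29.8%). Their summed level was 415 CPM in *tuft* and 223 CPM in wild type. In this list *Lmx1b*, a border factor, had the highest fold change among the better counted genes (172 and 71 counts, 7.05-fold), and *Pax2*, another border factor, the lowest (0 and 132 counts). *Pax5* and *Gbx2*, with 40 and 17 wild-type counts, were also at 0 in *tuft*, and *Cnpy1* was at 0 in both libraries. At the level of *Pax2*, at least 100 and under 300 wild-type counts, 15.9% of all genes had none in *tuft*. The share was 44.8% at the level of *Pax5*, at least 30 and under 100, and *Gbx2* lies in the band of *Gdf7*. The part of tissue composition in the values of *Wnt1*, *Wnt3* and *Wnt3a* was not tested.

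*Wnt7b* and *Wnt8b*, the ligands of the forebrain, had the most counts of the ligand genes in wild type, and *Wnt7b* in *tuft* as well. *Wnt7b* (chromosome 15, 85535437 to 85581821) had 1587 counts in *tuft* against 1862 in wild type, or 283 and 114 CPM. Its fold change was 2.48 (2.32 to 2.66), past 2-fold, and with library totals alone it was no longer past 2-fold (log2 fold change 0.92). *Wnt8b* (chromosome 19, 44493472 to 44514273) had 480 counts in *tuft* against 1001 in wild type, or 85.5 and 61.3 CPM. Its fold change of 1.40 (1.25 to 1.56) was within 2-fold, and with library totals the 2 libraries were close to level (0.087 on the log2 scale). The ratio of *Wnt7b* to *Wnt8b* counts, which needs no scaling, was 3.31 in *tuft* and 1.86 in wild type, and thus 1.78-fold higher in *tuft* (1.56 to 2.02). Of 13 forebrain and eye field genes, 5 were past 2-fold higher and 2 lower (38.5% and 15.4%, beside 17.4% and 29.8% of all genes tested). The median log2 fold change was 0.96, with a summed level of 1108 CPM in *tuft* and 520 CPM in wild type. *Nkx2-1*, a ventral forebrain factor, was 7.56-fold higher (6.60 to 8.68), and *Rax*, an eye field factor, was at 0.0150 (0.00181 to 0.0544) from 2 and 389 counts. *Hesx1* had 0 counts in *tuft* against 36 in wild type. With at least 30 and under 100 wild-type counts, 44.8% of all genes had none in *tuft*. The part of forebrain tissue in the values of these ligands was not tested.

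*Wnt6*, a ligand of the surface ectoderm (chromosome 1, 74754342 to 74785322), had 234 counts in *tuft* against 180 in wild type, from a *tuft* library with less depth. The level per length was 20.2 and 5.33 CPM per kb, and the fold change was 3.79 (3.10 to 4.62). *Wnt6* was past 2-fold higher under all 5 other scalings too. Of 12 surface ectoderm genes, 1 was past 2-fold higher and 2 were lower (8.33% and 16.7%, beside 17.4% and 29.8% of all genes tested). The median log2 fold change was 0.47, with a summed level of 1205 CPM in *tuft* and 756 CPM in wild type, and no gene at 0. *Krt8*, an epithelial keratin, was 3.14-fold higher (2.95 to 3.34), *Cdh1*, the epithelial cadherin, was at 0.229 (0.194 to 0.269) and *Krt19*, another keratin, at 0.187 (0.103 to 0.314). All 12 had a lower fold change than *Wnt6*, and the part of the ectoderm in its level was not tested.

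Among the ligands known mainly for signaling without β-catenin, the paralogs *Wnt5a* and *Wnt5b* differed in opposite directions. *Wnt5a*, which directs outgrowth and planar cell polarity (chromosome 14, 28504543 to 28527448), had 597 counts in *tuft* against 463 in wild type, or 106 and 28.3 CPM. The fold change was 3.75 (3.32 to 4.25), past 2-fold under all 6 scalings. *Wnt5b* (chromosome 6, 119432531 to 119544824) had 208 counts in *tuft* against 934 in wild type, or 37.1 and 57.2 CPM. It was at 0.648 (0.555 to 0.754), lower in *tuft* but within 2-fold, and it was higher (0.37 on the log2 scale) when scaled to *Gapdh*. The ratio of *Wnt5a* to *Wnt5b* counts was 2.87 in *tuft* and 0.496 in wild type, and thus 5.79-fold higher in *tuft* (4.75 to 7.06), which no scaling changes. *Wnt5a* thus had more counts than its paralog in *tuft* and fewer in wild type. Sequence shared between the paralogs was limited, since 16 of the 2603 stretches of 20 bases in *Wnt5b* transcripts also occur in *Wnt5a*. *Fbxl14*, a gene of a ubiquitin ligase subunit, overlaps *Wnt5b*, and had 229 and 1215 counts, and its fold change was 0.549 (0.474 to 0.633). No strand setting of the counting is given in the sources used here, so reads of the overlapping genes may not be separable.

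Of 15 neural crest and mesenchyme genes, which mark the tissue around *Wnt5a*, 3 were past 2-fold higher and 4 lower. Both counts were near the shares of all genes tested, 17.4% higher and 29.8% lower. The list had a median log2 fold change of -0.65, with a summed level of 770 CPM in *tuft* and 488 CPM in wild type. *Sox10*, a crest factor, was 11.1-fold higher (9.86 to 12.6), and *Prrx2*, a mesenchyme factor, had no count in *tuft*, against 301 in wild type. *Snai2*, *Foxd3* and *Meox1*, with 36, 14 and 12 wild-type counts, were also at 0 in *tuft*. At the level of *Prrx2*, at least 300 and under 1000 wild-type counts, 3.22% of all genes had no *tuft* count. The share was 44.8% at the level of *Snai2*, at least 30 and under 100 counts. It was 71.1% at that of *Foxd3* and *Meox1*, at least 10 and under 30. The part of mesenchyme in the level of *Wnt5a* was not tested.

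*Wnt11*, a ligand of convergent extension and of the heart (chromosome 7, 98835084 to 98854747), had no count in *tuft*, against 12 in wild type. The 12 counts correspond to 4.12 counts at the scale of the *tuft* library, so a lower level of *Wnt11* was not detectable at this depth. Its fold change against the floor of 3 counts, 0.728 with an interval up to 1.05, turned to the other side of 1 when scaled to *Gapdh* (0.54 on the log2 scale). Heart muscle genes also had few counts, 2 over 10 genes in *tuft* and 184 in wild type, with a summed level of 0.356 and 11.3 CPM. Each had under 100 wild-type counts. Of all genes with at least 10 and under 30 such counts, 71.1% had none in *tuft*, and with at least 30 and under 100, 44.8% had none. Of the 6 heart muscle genes that passed the filter, 2 were past 2-fold lower (33.3%), beside 29.8% of all genes tested. All 10 heart muscle genes other than *Myh6* were at 0 in *tuft*. The part of heart tissue in the counts of *Wnt11* was not tested.

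*Wnt4* can signal with and without β-catenin, and is best known from kidney and gonad (chromosome 4, 137277635 to 137299501). It had 187 counts in *tuft* against 139 in wild type, or 33.3 and 8.51 CPM. The fold change was 3.92 (3.13 to 4.91), the highest value among the ligand genes and past 2-fold under all 6 scalings. *Wnt4*, *Wnt5a* and *Wnt6* could not be ordered by their fold change, since the ratio of *Wnt5a* to *Wnt4* differed 0.958-fold (0.739 to 1.24) between the libraries, that of *Wnt5a* to *Wnt6* 0.992-fold (0.783 to 1.26) and that of *Wnt4* to *Wnt6* 1.03-fold (0.764 to 1.40). The 3 genes lie on different chromosomes. These pairs, and those above, were chosen after their values were seen.

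**Figure D2:**
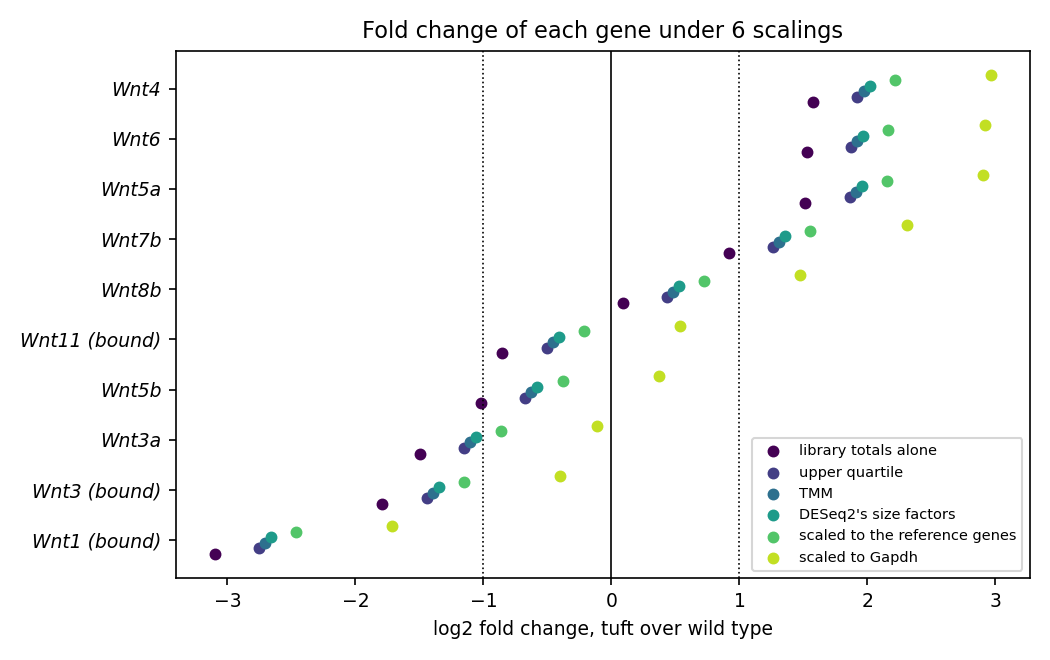
log2 fold change of each ligand gene (x axis, *tuft* over wild type) under TMM and 5 other scalings, with dotted lines at 2-fold and genes without a *tuft* count as upper bounds. *Wnt4*, *Wnt5a* and *Wnt6* stay to the right of 2-fold and *Wnt1* to the left in each scaling, and *Wnt5b* and the bound of *Wnt11* cross 0 when scaled to *Gapdh*.

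The division of the ligand counts among the genes is free of any scaling between the libraries. *Wnt7b* held the largest share in both, 47.9% (46.2 to 49.6, Clopper-Pearson) of the 3312 counts in *tuft* and 38.9% (37.5 to 40.3) of the 4790 in wild type. *Wnt5a* followed in *tuft* with 18.0% (16.7 to 19.4), against 9.67% (8.84 to 10.5) in wild type. *Wnt5b* made up 6.28% (5.48 to 7.16) in *tuft* and 19.5% (18.4 to 20.6) in wild type. The order of the leading ligands thus differed, with *Wnt7b*, *Wnt5a* and *Wnt8b* first in *tuft* and *Wnt7b*, *Wnt8b* and *Wnt5b* first in wild type. *Wnt8b* held 14.5% (13.3 to 15.7) and 20.9% (19.8 to 22.1), so its share was smaller in *tuft* although its TMM-scaled level was higher. *Wnt6* held 7.07% in *tuft* and 3.76% in wild type, and *Wnt4* 5.65% and 2.90%. *Wnt3a* differed in the other direction, with 0.574% (0.346 to 0.894) and 2.48% (2.06 to 2.97). *Wnt1*, *Wnt3* and *Wnt11* held 1.19%, 0.480% and 0.251% in wild type, and for each a count of 0 of 3312 in *tuft* allows a share of up to 0.0906% by the floor of 3 counts, or 0.111% by the Clopper-Pearson interval.

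**Figure D3:**
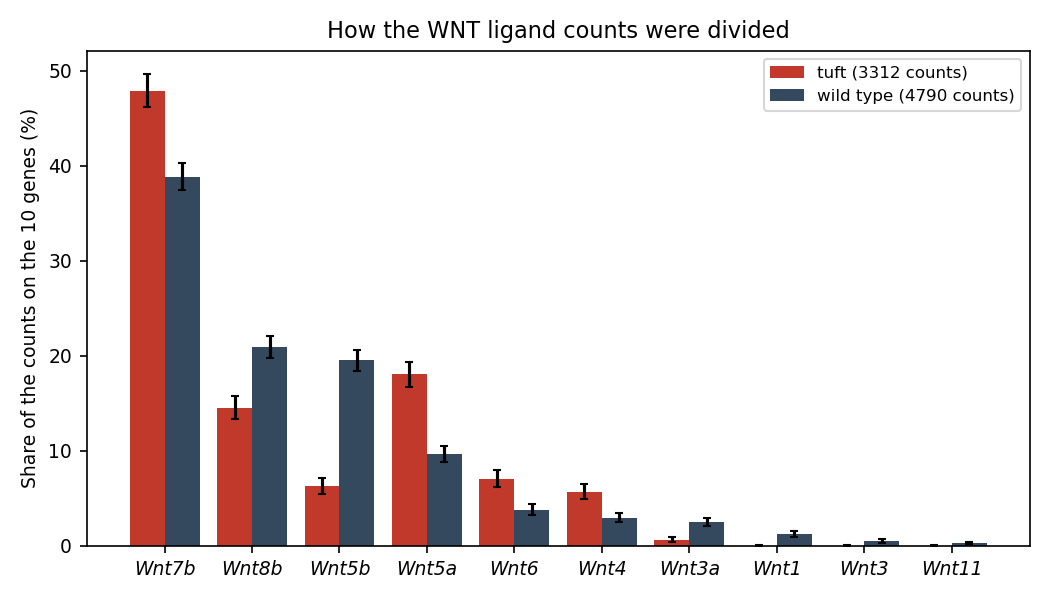
Share of the counts on the 10 ligand genes (y axis, %) held by each gene, with 3312 counts in *tuft* against 4790 in wild type; error bars are 95% Clopper-Pearson intervals. *Wnt5a* is above *Wnt5b* in *tuft* (18.0% and 6.28%) and below it in wild type (9.67% and 19.5%).

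Levels of different genes were compared as CPM per kb of the longest coding transcript of GENCODE M1. In wild type, *Wnt7b* was first with 32.6, followed by *Wnt5b* (24.4), *Wnt8b* (18.1), *Wnt6* (5.33), *Wnt5a* (4.04), *Wnt3a* (2.64), *Wnt4* (2.03), *Wnt1* (1.47), *Wnt3* (0.458) and *Wnt11* (0.213) CPM per kb. The counting intervals overlapped for the neighbors *Wnt3a* and *Wnt4*, *Wnt4* and *Wnt1*, and *Wnt3* and *Wnt11*. In *tuft*, *Wnt7b* was again first with 81.0, followed by *Wnt8b* (25.3), *Wnt6* (20.2), *Wnt5b* (15.8), *Wnt5a* (15.2), *Wnt4* (7.95) and *Wnt3a* (1.23) CPM per kb. There the intervals of *Wnt6* and *Wnt5b* and of *Wnt5b* and *Wnt5a* overlapped. *Wnt6* and *Wnt5a* thus lay below *Wnt5b* in wild type and near it in *tuft*. The order depends on the length used: per coding length, *Wnt5a*, whose transcript of 7009 bases is the longest, was at position 4 in wild type and 2 in *tuft*, in place of 5 in both.

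**Figure D4:**
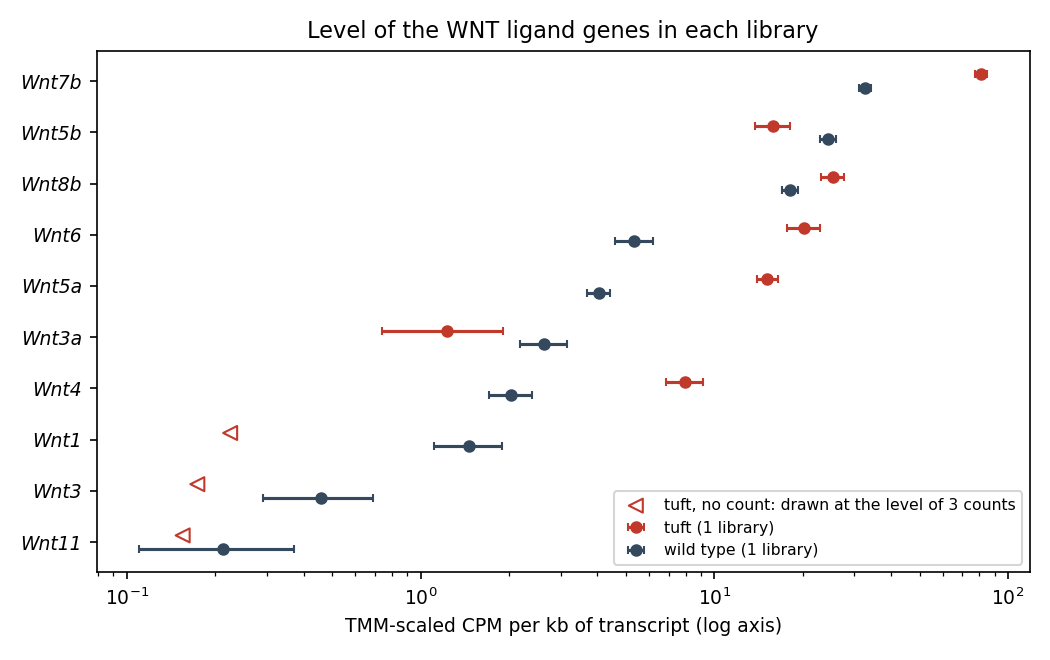
Level of each ligand gene per length (x axis, TMM-scaled CPM per kb of transcript, log axis) in the *tuft* and the wild-type library, with 95% Poisson intervals for counting error. Open triangles mark genes without a count in *tuft*, drawn at 3 counts, and *Wnt7b* is highest in both libraries (81.0 and 32.6).

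Several WNT genes of mammals lie side by side in pairs, and the neighbors of the ligand genes are therefore given. *Wnt1* lies 11.7 kb from *Wnt10b*, whose 27 counts in *tuft* against 2 in wild type gave 39.3 as the fold change (9.88 to 341), whereas *Wnt1* had 0 and 57. This pair had its counts in opposite libraries. *Wnt3a* lies 16.1 kb from *Wnt9a*, which had 1 count in *tuft* against 74 in wild type, 0.0394 (0.000983 to 0.226), and was lower like its neighbor. *Wnt3* overlaps *Wnt9b* in the annotation, and both were without a count in *tuft*, with 23 and 32 counts in wild type. *Wnt6* lies 6.70 kb from *Wnt10a*, which had 0 and 2 counts. Of the 22 neighbors with a row in the count tables, 19 passed the filter, 3 were past 2-fold higher and 6 lower. These counts are near the shares of all genes tested, 17.4% higher and 29.8% lower. Outside the family, *Erc2*, a gene of the synaptic active zone 26.0 kb from *Wnt5a*, had 304 counts in *tuft* against 94 in wild type, 9.42-fold higher, and *Sec31b*, a gene of vesicle coats 2.68 kb from *Wnt8b*, had 5 and 83, a fold change of 0.175 (0.0555 to 0.426). *Arf1*, a small GTPase gene 19.8 kb from *Wnt3a*, was 3.58-fold higher (3.47 to 3.70), against the direction of *Wnt3a*. *Uvrag*, an autophagy gene 32.0 kb from *Wnt11*, had 0 and 318 counts. With at least 300 and under 1000 wild-type counts, 3.22% of all genes had no *tuft* count. *AU022754*, which overlaps *Wnt7b*, and *Ppara*, a lipid-sensing receptor gene 153 kb from *Wnt7b*, each had 0 and 25, against the direction of *Wnt7b*. A zero was the usual value at this level, since 71.1% of genes with at least 10 and under 30 wild-type counts had none in *tuft*.

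Of the 9 WNT ligand genes outside the 10, 6 passed the filter, 1 was past 2-fold higher (*Wnt10b*) and 4 lower (*Wnt2b*, *Wnt7a*, *Wnt9a* and *Wnt9b*). The shares were 16.7% and 66.7%, beside 17.4% and 29.8% of all genes tested, with a median log2 fold change of -1.92. Together the 9 had 42 counts in *tuft* against 373 in wild type. *Wnt2b*, a ligand of the dorsal midline and eye, had the most, 14 and 204 counts, and its fold change was 0.200 (0.107 to 0.343). *Wnt7a*, the paralog of *Wnt7b*, had 0 and 34 counts. Over the whole table, the share past 2-fold lower in *tuft* depended on the wild-type count: it was 12.2% of genes with at least 10 and under 30 counts, 54.2% with at least 30 and under 100, 37.1% with at least 100 and under 300 and 27.5% with at least 300 and under 1000. *Wnt7a*, *Wnt9a* and *Wnt9b* lie in the band where this share was highest, and *Wnt2*, with 0 and 19 counts, lies in the lowest band. The rule limits the lowest band, because the interval of a gene without a *tuft* count must end below the inverse of 2-fold. It ended at 0.507 with 23 wild-type counts (*Wnt3*) and at 0.463 with 25 (*AU022754*). *Wnt3*, *Wnt11* and *Wnt2* thus had too few wild-type counts to be past 2-fold lower under TMM.

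The WNT ligands are made, received and limited by other genes, which were taken from lists chosen with earlier results of these data known. For secretion, 12 of 13 genes passed the filter, 6 were past 2-fold higher and none lower, with a median log2 fold change of 0.95. *Tmed5*, a cargo receptor, was 6.55-fold higher (5.34 to 8.07), and *Porcn*, the acyltransferase that lipid-modifies WNT proteins, was at 0.349 (0.190 to 0.599), with an interval not wholly past 2-fold. Of 16 receptors and co-receptors, 3 were higher and 3 lower (19% each, beside the same 17.4% and 29.8%), with a median of -0.22. *Fzd1*, a Frizzled receptor, was 5.01-fold higher, and *Ror1*, a receptor of WNT5A, had no count in *tuft*, against 177 in wild type. At the level of *Ror1*, at least 100 and under 300 wild-type counts, 15.9% of all genes had no *tuft* count.

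For the secreted inhibitors, 13 of 15 genes passed the filter, 6 were past 2-fold higher (46%) and none lower, with a median log2 fold change of 1.29. Of all genes tested, 17.4% were higher and 29.8% lower. *Dkk1*, which blocks LRP co-receptors, was 4.0-fold higher (3.31 to 4.85), and *Sfrp1*, which binds WNT proteins, was at 0.816 (0.750 to 0.887). Of 8 tested R-spondin and feedback genes, 1 was higher and 4 lower, with a median of -1.35. *Lgr5*, an R-spondin receptor, was at 2.73 (1.98 to 3.78), and *Znrf3*, a ubiquitin ligase that removes Frizzled receptors, had 4 counts in *tuft* against 397 in wild type.

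Of 17 intracellular genes of the β-catenin branch, 2 were past 2-fold higher and 4 lower, with a median log2 fold change of -0.043. The shares were 11.8% and 23.5%, beside 17.4% and 29.8% of all genes tested. *Tcf7l2*, a transcription factor of the pathway, was 4.25-fold higher (3.82 to 4.72), and *Apc*, of the complex that degrades β-catenin, was at 0.0824 (0.0544 to 0.120). Of 18 genes known as WNT targets, 16 passed the filter, 5 were higher and 3 lower (31% and 19%), with a median of 0.21. *Sp5*, a direct target, was 8.43-fold higher (6.85 to 10.4), from 356 and 123 counts, and *Nkd2*, a feedback inhibitor, had 2 counts in *tuft* against 236 in wild type. *Axin2*, the target used most often as a readout, was at 0.502 (0.429 to 0.585), so known targets lay on both sides. Some genes stand on more than 1 of these lists.

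Markers of other tissues also differed between the libraries, and their part in the ligand values was not tested. Of 11 yolk sac genes, 9 were past 2-fold lower (81.8%, beside 29.8% of all genes tested) and none higher (beside 17.4%). Their summed levels were 327 CPM in *tuft* and 2082 CPM in wild type. Of 9 tested erythroid genes, 3 were higher and 4 lower (33.3% and 44.4%), with summed levels of 40865 and 2871 CPM. The globin genes *Hba-x* and *Hbb-y* held 118762 and 103925 of the 229301 counts of this list in *tuft*. In wild type they held 20173 and 9335 of 46907. The 4 lower genes were *Alas2*, *Epb4.2*, *Gata1* and *Klf1*. Of 16 *Hox* genes of more caudal tissue, 2 passed the filter, with 131 and 54 counts over the list. *Hoxb4* held 130 and 10 of these counts and the other 15 genes 1 and 44. Of the 12 reference genes, 1 was past 2-fold higher and 4 were lower (8.33% and 33.3%). Of the 3 *Tet* genes, *Tet1* and *Tet2* were lower (66.7%). *Tet2* had 0 counts in *tuft* against 129 in wild type. At this level, at least 100 and under 300 wild-type counts, 15.9% of all genes had none in *tuft*. By its own criteria, the paper found *Tet2* and *Tet3* not significantly changed in RNA-Seq and qPCR.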

How the data were processed

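RNA-Seq counts of 1 *tuft* and 1 wild-type library were analyzed. The authors deposited raw counts per gene symbol. They trimmed single-end Ion Proton reads of poly-A RNA with PRINSEQ, aligned them to mm10 with TopHat2 2.0.14 and Bowtie2 2.2.5, and counted them with htseq-count, whose version and strand setting are not given in the sources used here. The 5 summary lines of each table were left out of totals. They held 72.6% of the entries in *tuft* and 62.7% in wild type, mostly alignments that were not unique.

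TMM factors were computed with edgeR 4.0.16 in R 4.3.3, and all other values with Python 3.11.15, numpy 2.4.6, scipy 1.17.1 and pandas 2.3.3. With 1 library per genotype edgeR has no residual degrees of freedom. NOISeq-sim, the program of the study's methods, was not run, since its replicates are simulated. Fold changes carry Clopper-Pearson 95% intervals, and a count of 0 was set to 3. Reads carry no molecular identifiers. Intervals and floors thus cover counting error only. Genes with at least 10 counts over both libraries were kept. The calculation was tested on simulated data. Alternatives were 5 scalings (DESeq2 1.42.0 gave 1), other thresholds and other filters.

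All 10 ligand genes are named, then from each list the highest and lowest fold change among genes with at least 100 counts over both libraries. *Tet1*, *Gapdh* and neighbors in the genome are also named, the latter limited to WNT genes, *Fbxl14* and others past 2-fold, a limit set after their values were seen. Other genes were named after their values were seen. The ligand genes and lists were chosen with earlier results of these data known. Positions and promoters came from RefSeq (GRCm38.p6) and lengths from GENCODE M1 (NCBIM37).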

Additional observations from a re-analysis of the deposited data

How the results depend on the processing

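The count of ligand genes past 2-fold higher in *tuft*, 4, was 3 to 5 under the other scalings, and 0 when the whole interval had to be past 4-fold. The count lower, 1, became 2 with library totals, with the upper quartile and at 1.5-fold, 3 when the fold change was used without its interval, and 0 with a minimum of 100 counts, which leaves 7 of the 10 genes and not *Wnt1*. The share of all genes past the threshold fell to 22.8% at 4-fold. The median log2 fold change of the ligand genes, 0.012, was -0.38 with library totals, -0.036 with the upper quartile, 0.25 with the reference genes and 1.01 with *Gapdh*. It was 1.31 with the 3 genes at 0 left out and also with a minimum of 100 counts. Of 50 values of single genes under another scaling, 2 reversed, both with *Gapdh*: *Wnt5b* (0.37) and the bound of *Wnt11* (0.54). The order by level per length kept 4 of 10 positions in wild type and 6 in *tuft* with coding length. No paired analysis was possible because there is 1 count column per genotype, and for the same reason no library could be left out.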

Other observations

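Some genes of the border between midbrain and hindbrain, where *Wnt1* is expressed, had nearly all their counts in 1 of the libraries, and others had counts in both. *En1*, a homeobox factor of this region, had 70 counts in *tuft* against 2 in wild type, which gave 102 as the fold change (27.2 to 858), and its paralog *En2* had 31 and 3, a fold change of 30.1 (9.39 to 154). *Pax5*, a factor of the same region, had 0 counts in *tuft* against 40 in wild type. At its level, at least 30 and under 100 wild-type counts, 44.8% of all genes had none in *tuft*. *Fgf8*, the signal of this border, was 3.33-fold higher (2.81 to 3.95), and *Fgf17*, a related signal, was close to level (0.935, 0.742 to 1.17). These genes were chosen after their values were seen.

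*Wif1*, a secreted inhibitor that binds WNT proteins, had 63 counts in *tuft* against 9 in wild type, which gave 20.4 as the fold change (10.1 to 46.6). Among the R-spondins, secreted amplifiers of WNT signaling, *Rspo4* had 61 counts in *tuft* against 10 in wild type (17.8-fold, 9.03 to 38.9), whereas *Rspo2* had 8 and 190 (0.123, 0.0522 to 0.247) and *Rspo3* had 7 and 107 (0.190, 0.0748 to 0.406).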
